A study of Mus musculus with 12 samples.

Results

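Cytosolic sulfotransferases move a sulfonate group from the donor PAPS (3'-phosphoadenosine 5'-phosphosulfate) onto hormones, bile acids, drugs and plant phenols, which makes these molecules more water-soluble and usually inactive. The liver is a main site of this reaction, and in mice several hepatic sulfotransferase genes are known to differ in level between the sexes and with diet. The genes described here were Sult1a1, Sult1b1, Sult1c2, Sult1d1, Sult1e1, Sult2a8 and Sult5a1. They were chosen from earlier results of these data with their levels over the 4 groups in view, so their own levels and differences are given as a description, and where calls of these genes are counted nothing is read from them. Rows were found for 6 of the 7 genes, out of 22170 gene names in the table, and Sult5a1 was not analysed here. Sult2a8 stands in the table under its older symbol 2810007J24Rik and was matched by its Ensembl gene identifier.

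Livers came from 12 male C57BL/6J mice of 21 weeks of age that had eaten their diets for 16 weeks, with 3 mice in each group. The ND mice ate a normal diet and the HFD mice a high-fat diet. The CLE mice (abbreviated CLL in the sample titles) ate the high-fat diet with 1.5% (w/w) of an ethanol extract of Chrysanthemum morifolium leaves, and the LU mice the high-fat diet with 0.003% (w/w) of the flavone luteolin. The study's methods name no transgene or engineered deletion, the mice were killed after fasting, and the methods call the 3 livers of each group representative without saying how they were picked. Expression was given as FPKM, the fragments assigned to a transcript scaled to transcript length and library size, and was summed here over all transcripts of a gene. The depth of the libraries is unknown, so counting error has no interval here, and p-values measure the spread between these mice.

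The 6 CLE and LU libraries stood apart from the 6 ND and HFD libraries in their relation to base composition. When each library was set against the average library over 7182 genes, its excess correlated with GC content by -0.41 to -0.13 (Spearman) among the ND and HFD livers, but by 0.18 to 0.51 among the CLE and LU livers, which cannot be told apart from the treatments. The liver label held against its markers, since all 7 hepatocyte markers averaged over 0.5 FPKM and the summed level of the 4 kidney tubule markers was at most 0.241 FPKM. Albumin was listed at 0 in 11 of the 12 livers, which shows that a value of 0 in this table can be a failed estimate. Summed markers of some other cell types moved with the diet: Kupffer cell and macrophage markers (6 of 6 with a mean of at least 0.5 FPKM) spanned 95.9 to 98.3 FPKM in ND and 142 to 212 in HFD livers, stellate cell and fibroblast markers (6 of 6) 72.6 to 103 and 128 to 162, and endothelial markers (6 of 6) 67.5 to 80.2 and 86.1 to 90.7. The sum of the adipocyte list (1 of 4, Fabp4) spanned 10.7 to 14.9 and 27.9 to 31.6. Adipoq, Plin1 and Lep averaged 0.18, 0.07 and 0.04 FPKM, so this sum describes Fabp4 rather than adipocytes. In CLE livers these sums were 135 to 173, 127 to 201, 93.4 to 106 and 22.3 to 56.8 FPKM, and in LU livers 105 to 175, 128 to 170, 86.6 to 118 and 27.4 to 48.0 FPKM, so that the endothelial sum was higher in all CLE than in all HFD livers and the other ranges overlapped with HFD. Cholangiocyte markers (3 of 6) overlapped, with 18.4 to 41.3 FPKM in ND and 36.3 to 55 in HFD livers. Lymphocyte markers (4 of 6) also overlapped, with 6.58 to 8.83 and 8.25 to 11.8 FPKM. Acinar pancreas markers (1 of 4, Cela1) went the other way, with 12.5 to 15.2 FPKM in ND and 9.13 to 11.7 in HFD livers. The part of other cells in the differences below was not tested, and in whole liver fewer cells of a type and less RNA per cell cannot be told apart.

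Sult1b1, Sult1d1 and Sult1e1 lie next to each other on the minus strand of chromosome 5 (GRCm38). Sult1b1 (ENSMUSG00000029269) spans 87513339 to 87538195, Sult1d1 (ENSMUSG00000029273) follows after 16.4 kb at 87554645 to 87569027, and Sult1e1 (ENSMUSG00000029272) after a further 6.9 kb at 87575969 to 87591594. Sult1a1 (ENSMUSG00000030711, 126672865 to 126676432) and Sult2a8 (ENSMUSG00000030378, 14410686 to 14446769) lie far apart on chromosome 7, and Sult1c2 (ENSMUSG00000023122, 53829637 to 53846339) lies on chromosome 17, all on the minus strand. The leading reference transcripts have 8 exons (7 in Sult2a8) and code for proteins of 281 residues in Sult2a8 and 294 to 298 residues in the Sult1 genes. No run of 100 bases of the leading transcript was shared with another gene's transcripts in 5 genes, and in Sult1a1 2.4% of such runs were shared, with Gm6939. Of runs of 50 bases, Sult1a1 shared 9.2% with Gm6939 and Sgf29 and Sult1c2 0.7% with Sult1c2-ps2, so these 2 levels carry some uncertainty from copies.

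The upstream sequences of the 3 neighbouring genes are shown because the summed levels of Sult1d1 and Sult1e1 ranked the groups alike while that of Sult1b1, beside them, did not. The Sult1b1 window lies before the start of ENSMUST00000031199 only. That transcript held 13.6 to 16.5 FPKM in HFD livers, above all ND (6.03 to 12.5) and CLE livers (6.16 to 9.82). It overlapped the LU livers (7.45 to 14.5). The inner start of Sult2a8 is shown because its transcript was flat where the outer start's transcripts were not. The sequences are the RefSeq bases on GRCm38.p6 before the start site, read 5' to 3' on the minus strand: chr5:87538196-87538445 for Sult1b1, chr5:87569028-87569256 for Sult1d1, chr5:87591651-87591861 for Sult1e1 and chr7:14438562-14438801 for the inner start of Sult2a8. The bases nearest the start that a transcript covers were left out (21 in Sult1d1, 39 in Sult1e1 and 10 in Sult2a8). Capitals mark matches on either strand to 6 searched motifs, namely AGGTCA (the core that many nuclear receptors bind), TATAAA (the box before many start sites), GTTAAT (part of the HNF1 motif), GCGTG (the core of the aryl hydrocarbon receptor motif), TTCNNNGAA (STAT5) and TTNNGCAA (C/EBP).
Sult1b1: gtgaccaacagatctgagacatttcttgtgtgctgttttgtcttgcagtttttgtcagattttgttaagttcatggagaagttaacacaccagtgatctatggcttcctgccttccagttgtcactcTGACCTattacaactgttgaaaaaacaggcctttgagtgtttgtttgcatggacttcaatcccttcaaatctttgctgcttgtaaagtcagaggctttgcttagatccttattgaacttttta
Sult1d1: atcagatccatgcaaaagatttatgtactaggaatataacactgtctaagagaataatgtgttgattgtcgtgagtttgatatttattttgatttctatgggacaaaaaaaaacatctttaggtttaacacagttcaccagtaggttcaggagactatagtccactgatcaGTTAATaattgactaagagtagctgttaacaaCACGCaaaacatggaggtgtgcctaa
Sult1e1: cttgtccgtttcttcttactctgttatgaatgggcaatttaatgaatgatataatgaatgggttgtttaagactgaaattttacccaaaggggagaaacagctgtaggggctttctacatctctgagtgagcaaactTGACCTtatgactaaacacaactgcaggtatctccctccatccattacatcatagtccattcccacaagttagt
Sult2a8 inner start: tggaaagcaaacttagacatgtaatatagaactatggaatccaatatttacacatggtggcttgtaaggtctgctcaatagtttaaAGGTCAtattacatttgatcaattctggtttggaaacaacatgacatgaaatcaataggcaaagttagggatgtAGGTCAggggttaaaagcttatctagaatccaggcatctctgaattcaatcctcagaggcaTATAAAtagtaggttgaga
Sult1b1 and Sult1e1 each held AGGTCA once on the opposite strand, at 118 to 123 and 108 to 113 bases before the start. Sult1d1 held no AGGTCA in this window, but GTTAAT at 74 to 79 bases and GCGTG on the opposite strand at 43 to 47 bases. The inner start of Sult2a8 held AGGTCA at 159 to 164 and at 85 to 90 bases and TATAAA at 24 to 29 bases. The 250 bases before its outer start, which are not shown, held no AGGTCA. They held TATAAA at 218 to 223 and TTNNGCAA at 210 to 217 bases, both on the opposite strand. Outer transcripts reach into that window. Of 32851 RefSeq windows of 250 bases, 14.0% held AGGTCA, 12.4% TATAAA, 6.4% GTTAAT, 28.2% GCGTG, 7.0% TTCNNNGAA and 9.6% TTNNGCAA, and a match describes letters in this window and no more. No match overlapped another.

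Sult1e1, the estrogen sulfotransferase that inactivates estradiol and estrone, separated the groups most among the 6 genes. Its level was 12.0, 6.61 and 15.2 FPKM in the HFD livers of mice 12, 15 and 18, against 0.399, 0.192 and 0.0822 FPKM in the ND livers of mice 2, 3 and 4. In the livers given CLE (mice 2, 4 and 11) it was 0.334, 0.273 and 0.295 FPKM, and in those given luteolin (mice 2, 3 and 8) 0.927, 2.12 and 0.419 FPKM. Every HFD liver was above every other liver, the CLE livers lay within the ND range, and the LU livers lay above the other non-HFD livers. The HFD mean of 11.3 ± 4.33 FPKM (SD, n = 3) was 50.1 times the ND mean of 0.225 ± 0.161, 37.4 times the CLE mean of 0.301 ± 0.0311 and 9.74 times the LU mean of 1.15 ± 0.872. On the log2(FPKM + 1) scale, which understates changes of low genes, HFD exceeded ND by 3.26 ± 0.28 (SE), CLE differed from HFD by -3.17 ± 0.28 and LU from HFD by -2.52 ± 0.28. With a pseudocount of 0.1 these differences were 5.17, -4.75 and -3.34, and the low levels outside the HFD group make the ratios imprecise. Between CLE and LU livers, whose doses differ and are an extract and a pure compound, the difference was -0.65 ± 0.28, with all 3 LU livers above all 3 CLE livers. The reference transcript ENSMUST00000031201 carried 5.53 to 13.5 FPKM in HFD livers and at most 1.22 FPKM elsewhere, and an assembled transcript with a new junction carried 1.07 to 1.51 FPKM in HFD livers and at most 0.355 elsewhere.

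**Figure D1:**
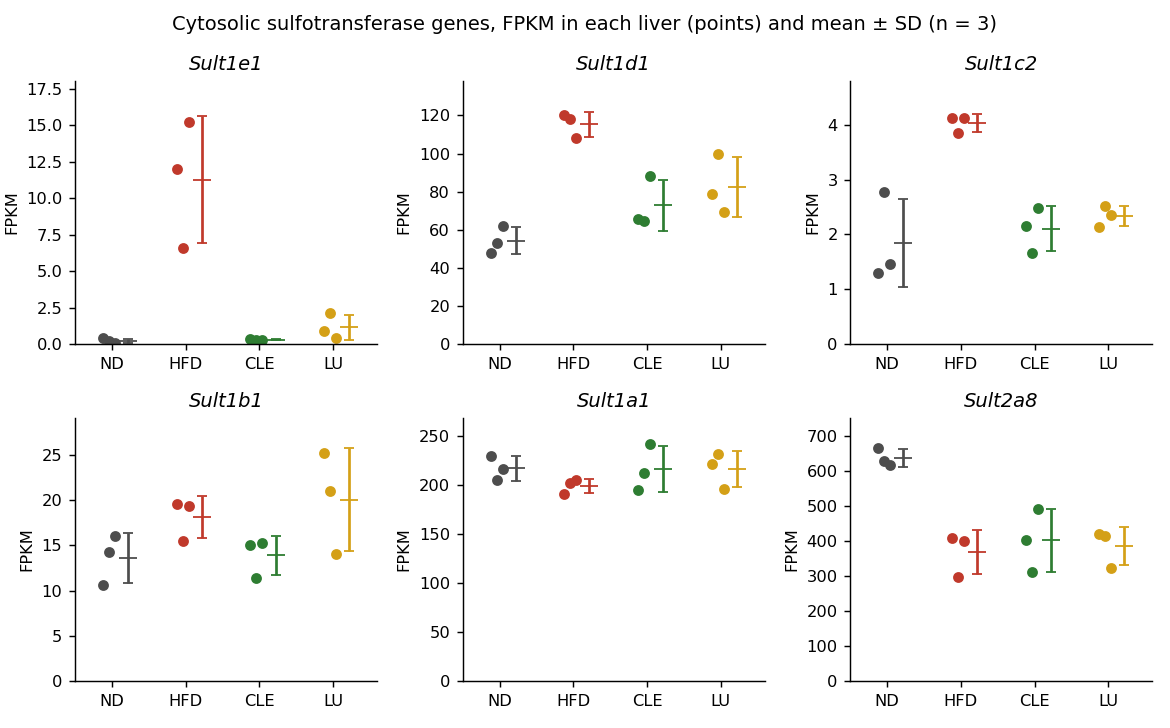
FPKM (y axis, linear, from 0) of 6 sulfotransferase genes in each of the 12 livers, by group on the x axis, with points for mice and a bar for mean ± SD (n = 3). The 3 HFD livers sit above all others for Sult1e1, Sult1d1 and Sult1c2, and the 3 ND livers sit above all others for Sult2a8.

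Sult1d1, which sulfates dopamine and other catechols, had the same order of groups at a higher level. The HFD livers held 120, 118 and 108 FPKM and the ND livers 47.9, 53.1 and 62.0 FPKM. The CLE livers held 65.7, 64.8 and 88.3 FPKM and the LU livers 78.7, 99.8 and 69.1 FPKM. All HFD livers were above all others, all CLE and LU livers were above all ND livers, and CLE and LU livers overlapped. The HFD mean of 115 ± 6.27 FPKM was 2.12 times the ND mean of 54.3 ± 7.13, with CLE at 72.9 ± 13.3 and LU at 82.5 ± 15.7 FPKM between them. The log2 differences were 1.08 ± 0.16 for HFD against ND, -0.67 ± 0.16 for CLE against HFD and -0.49 ± 0.16 for LU against HFD. Sult1d1 has the lowest GC content of the 6 leading transcripts (32.9%, the highest being 47.6% in Sult1a1), and with each library's trend on GC content and length smoothed out the differences from HFD were -0.45 for CLE and -0.25 for LU. ENSMUST00000113314 carried the whole of the gene in every liver.

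Sult1c2, which sulfates small phenols, was low, and its 3 HFD livers lay close together. It stood at 4.13, 3.84 and 4.13 FPKM in HFD, 1.29, 2.77 and 1.47 in ND, 2.16, 1.67 and 2.49 in CLE and 2.14, 2.52 and 2.35 in LU livers. The HFD livers were above all others, and the ND, CLE and LU livers overlapped. HFD averaged 4.03 ± 0.17 FPKM, 2.19 times the ND mean of 1.84 ± 0.809, while CLE averaged 2.11 ± 0.415 and LU 2.34 ± 0.186 FPKM. The log2 differences were 0.86 ± 0.17 for HFD against ND, -0.70 ± 0.17 for CLE against HFD and -0.59 ± 0.17 for LU against HFD. Sult1c2 is known mainly from kidney and stomach. The 4 kidney tubule markers, of which Slc12a1 and Slc34a1 were listed at 0 in all livers, summed to 0.0539 to 0.212 FPKM in ND, 0.0288 to 0.0308 in HFD, 0.11 to 0.241 in CLE and 0.113 to 0.2 FPKM in LU livers, and their part in the Sult1c2 levels was not tested. Over the 12 livers the log2 levels of Sult1c2, Sult1d1 and Sult1e1 were correlated pairwise (Pearson's r of 0.82 for Sult1c2 with Sult1d1, 0.85 for Sult1c2 with Sult1e1 and 0.83 for Sult1d1 with Sult1e1), and all 3 values share the same libraries and the same HFD group.

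Sult1b1, which sulfates thyroid hormones and phenols, did not share this order in its summed level although it lies beside Sult1d1. Its level was 10.6, 14.3 and 16.0 FPKM in ND, 19.6, 15.5 and 19.4 in HFD, 15, 11.4 and 15.3 in CLE and 25.2, 21.0 and 14.0 FPKM in LU livers. The HFD livers overlapped the ND and LU livers, and were above the CLE livers by a margin smaller than the spread of either group. The means were 13.6 ± 2.74, 18.2 ± 2.34, 13.9 ± 2.18 and 20.1 ± 5.64 FPKM in ND, HFD, CLE and LU livers. Log2 differences of 0.40 ± 0.20 for HFD against ND, -0.37 ± 0.20 for CLE against HFD, 0.11 ± 0.20 for LU against HFD and -0.48 ± 0.20 for CLE against LU followed. The transcripts were shared out unevenly, since ENSMUST00000120150 took from 3.1% to 46.1% of the gene, with 0.474 to 4.43 FPKM in HFD and 5.68 to 10.3 FPKM in LU livers. The leading transcript ENSMUST00000031199 alone held 13.6 to 16.5 FPKM in HFD and 7.45 to 14.5 FPKM in LU livers, and its log2 difference between LU and HFD was -0.44, the opposite sign to that of the sum. In ND livers this transcript held 6.03 to 12.5 FPKM and in CLE livers 6.16 to 9.82 FPKM, under all HFD livers.

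Sult1a1, the main phenol sulfotransferase and one that acts on flavonoids, was the steadiest of the 6. It stood at 230, 205 and 217 FPKM in ND, 191, 202 and 205 in HFD, 195, 213 and 242 in CLE and 222, 232 and 196 FPKM in LU livers. The CLE and LU livers overlapped the other groups, and the HFD livers reached up to the lowest ND liver. Means ran from 199 ± 7.44 FPKM in HFD to 217 in the other 3 groups (SD 12.3 in ND, 23.7 in CLE and 18.8 in LU). The log2 differences were -0.13 ± 0.11 for HFD against ND and 0.12 ± 0.11 for both CLE and LU against HFD. With median-of-ratios scaling, HFD against ND was -0.28.

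Sult2a8, which sulfates bile acids in mouse liver, was the most abundant of the 6 genes and the one that was lower in HFD than in ND livers beyond their ranges by the widest margin. It stood at 665, 628 and 617 FPKM in ND, 408, 296 and 400 in HFD, 402, 311 and 492 in CLE and 421, 414 and 322 FPKM in LU livers. Every ND liver was above every other liver, and the 3 high-fat groups overlapped. The ND mean of 637 ± 25.2 FPKM was 1.73 times the HFD mean of 368 ± 62.4, and the CLE mean of 402 ± 90.8 and the LU mean of 386 ± 55.5 lay within the HFD spread. The log2 differences were -0.80 ± 0.18 for HFD against ND, 0.12 ± 0.18 for CLE against HFD and 0.07 ± 0.18 for LU against HFD. An assembled row on the opposite strand adds 3.0% to 5.6% of these sums.

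The difference in Sult2a8 stood in the transcripts of its outer start site. The 3 transcript rows that begin there (ENSMUST00000063509, ENSMUST00000125941 and an assembled variant) summed to 502 to 526 FPKM in ND, 187 to 296 in HFD, 188 to 381 in CLE and 217 to 324 FPKM in LU livers. The row of the inner start, ENSMUST00000168252, held 87.3 to 118 FPKM in ND, 94.2 to 119 in HFD, 88.2 to 106 in CLE and 77.1 to 93.1 FPKM in LU livers. The ND livers were thus apart from all others at the outer start and overlapped the others at the inner start, although both full-length transcripts code for 281 residues. Among the outer transcripts, ENSMUST00000125941, a shorter form of 188 residues, held 190 to 201 FPKM in ND and 88.4 to 127 in HFD livers, and in CLE and LU livers it ranged from a listed 0 to 92.1 FPKM. The assembled variant held 4.56 to 30.2 FPKM in ND and 19.1 to 41.2 in HFD livers, against 35.5 to 105 in CLE and 40.9 to 120 FPKM in LU livers. These splits are estimates, because overlapping transcripts share most of their exons.

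**Figure D2:**
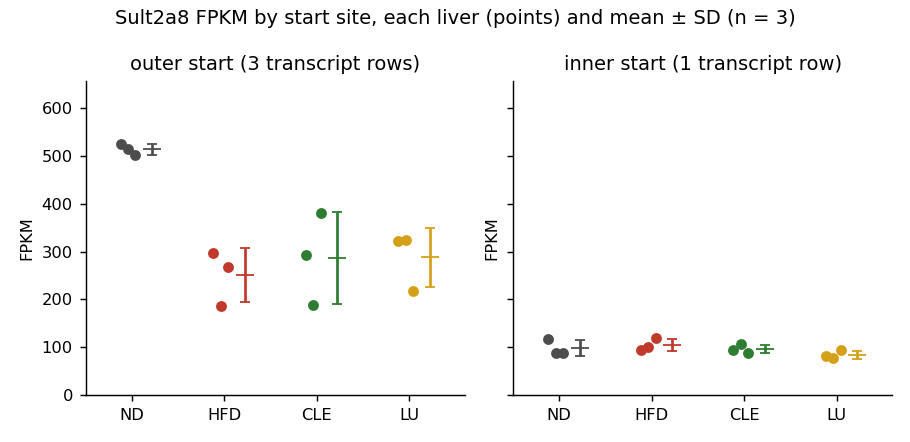
Sult2a8 FPKM (y axis, linear, from 0) summed by start site in each of the 12 livers, by group, with points for mice and a bar for mean ± SD (n = 3). ND livers average 514 FPKM against 250 in HFD livers at the outer start, and 97.8 against 104 FPKM at the inner start.

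Over the 6 genes, the composition of the sulfotransferase messages shifted with the diet. Their summed level was 904 to 955 FPKM in ND livers and 602 to 841 FPKM in the 9 other livers. Sult2a8 made up 67.6% to 69.6% of the sum in ND livers and 46.1% to 59.1% elsewhere. Sult1d1 made up 5.01% to 6.79% in ND, 14.4% to 18.3% in HFD, 9.66% to 10.8% in CLE and 10.5% to 12.9% in LU livers. Sult1e1 reached 1.03% to 2.02% in HFD livers and at most 0.27% in any other. In each of the 12 livers the order by level was Sult2a8, Sult1a1, Sult1d1 and Sult1b1, and below them Sult1e1 was above Sult1c2 in the 3 HFD livers and under it in the rest.

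**Figure D3:**
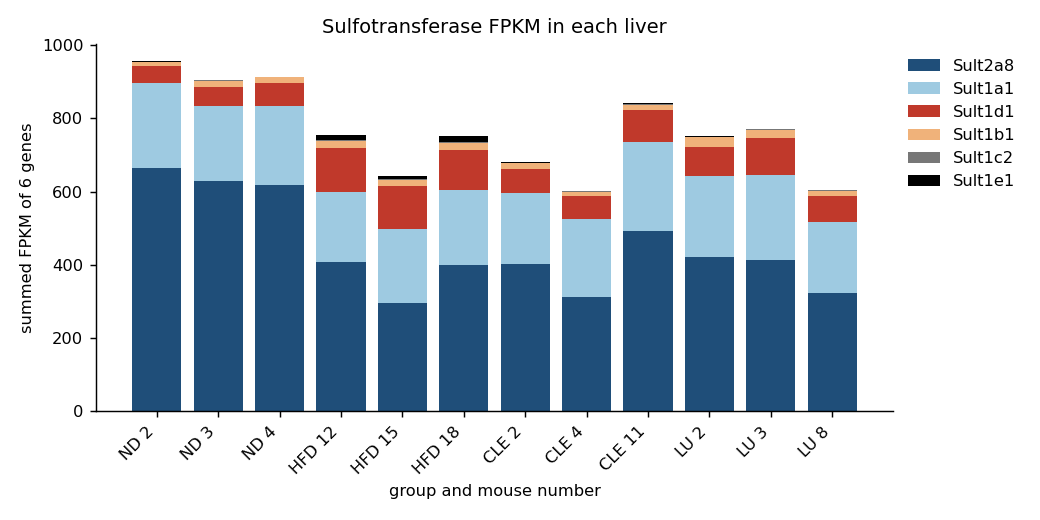
Stacked bars of FPKM (y axis, linear, from 0) of the 6 genes in each of the 12 livers, labelled by group and mouse number. The ND bars reach 904 to 955 FPKM and the others 602 to 841 FPKM, with the Sult2a8 block smaller and the Sult1d1 block larger in HFD livers.

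Set against the 11566 genes that averaged 0.5 FPKM or more, the counts for the 6 genes were as follows, and nothing is read from them because these contrasts were in view when the genes were chosen. The comparisons with the HFD group share its 3 livers. Between HFD and ND livers, 4 of the 6 genes passed an adjusted p of 0.05 in limma, Sult1c2, Sult1d1 and Sult1e1 higher and Sult2a8 lower, where 12.1% of all genes passed (1156 higher and 244 lower). Groups did not overlap for 5 of the 6 genes, against 36.5% of all genes. The median log2 difference was 0.63 for the 6 genes and 0.11 for all genes. Between CLE and HFD livers, Sult1c2, Sult1d1 and Sult1e1 passed, where 6.03% of all genes passed. Without HFD mouse 12, 15 or 18, CLE mouse 4 or LU mouse 2, Sult1e1 alone passed there, while the genes passing in the whole table fell from 698 to between 28 and 380. Without HFD mouse 15 or ND mouse 2 Sult2a8 no longer passed between HFD and ND livers, where 955 and 656 of all genes passed in place of 1400. Groups did not overlap between CLE and HFD livers for 4 genes, against 31.3%, and the medians were -0.52 and 0.02. Between LU and HFD livers Sult1e1 passed, where 1.03% of all genes passed. Here 3 genes did not overlap, against 30.0%, with medians of -0.21 and -0.02. Between CLE and LU livers 0 of the 6 genes passed, where 0.00865% of all genes passed (508 genes at an unadjusted p of 0.05), and 1 gene, Sult1e1, did not overlap, against 7.08%, with medians of -0.14 and 0.03. With median-of-ratios scaling, 55.2% of the genes called between HFD and ND livers were higher, against 82.6% as deposited, and the median over all genes moved from 0.11 to -0.01, while the 4 genes kept their directions and 4 of the 6 still passed.

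**Figure D4:**
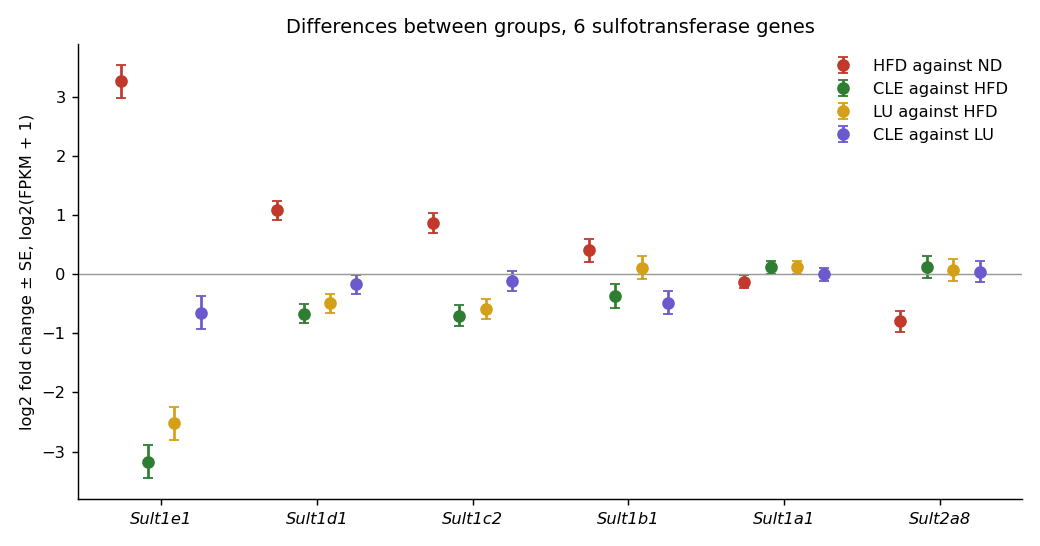
Log2 fold change ± SE (y axis, on log2 of FPKM + 1, first group minus second) of 6 sulfotransferase genes in 4 comparisons, which share livers. Sult1e1 lies at 3.26 for HFD against ND and at -3.17 and -2.52 for CLE and LU against HFD, and Sult1a1 lies within 0.13 of 0 in the comparisons with HFD.

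Of 14 further cytosolic sulfotransferase genes, Sult1c1, Sult2a4, Sult2a5, Sult2a6 and Sult6b2 were listed at 0 in all 12 livers, which in this table is no measure of absence, and 8 others were listed at up to 0.24 FPKM in any liver. Sult2a7, of the same subfamily as Sult2a8, was higher. It averaged 3.78 ± 1.22 FPKM in ND, 6.12 ± 1.99 in HFD, 3.0 ± 0.635 in CLE and 3.66 ± 1.38 FPKM in LU livers. Its log2 differences of 0.57 ± 0.26 for HFD against ND (adjusted p = 0.17), -0.81 ± 0.26 for CLE against HFD (adjusted p = 0.068) and -0.62 ± 0.26 for LU against HFD (adjusted p = 0.21) did not pass.

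The genes whose log2 level over the 12 livers was most like each sulfotransferase were sought among all tested genes. They were Cyp2c29 (Pearson's r of 0.940), B3glct (0.933) and Cyp2c38 (0.912) for Sult1e1. For Sult1d1 they were Mettl7a1 (0.937), Ildr2 (0.928) and Cyp2c50 (0.924), and for Sult1c2 Scpep1 (0.959), Dera (0.954) and Cpq (0.945). Cyp2c29, Cyp2c38 and Cyp2c50 are cytochromes P450 of a family with close copies, so fragments can be shared out between them. Sult2a8 was most like Urad (0.913), a gene of urate breakdown, Got1 (0.888) and C8b (0.876). Sult1b1 was most like Gna14 (0.868), Hsd3b2 (0.863) and Gulo (0.856), and Sult1a1 like Igf1 (0.847), Ap4s1 (0.834) and Mup3 (0.820). The points share libraries and group means, and these values are the highest of 11566 genes.

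Genes of the sulfation pathway outside the family were tested with limma over all genes. These lists were drawn up with earlier results of these data known, so their counts describe the lists and are no independent evidence. A list around PAPS and sulfate supply also held the PAPS transporters Slc35b2 and Slc35b3 and the phosphatases Bpnt1 and Impad1. Of its 17 tested genes, 2 rose and 2 fell between HFD and ND livers (23.5%, against 12.1% of all genes). Papss1, a PAPS synthase, rose from 3.10 ± 0.587 to 5.35 ± 0.314 FPKM (log2 0.64 ± 0.15, adjusted p = 0.018), a call lost with quantile normalization and without some single mice. The Papss1 call was kept in 17 of 22 alternative runs, which changed a setting or left out a mouse. Sqrdl, which oxidises hydrogen sulfide, rose from 57.6 ± 5.69 to 84.0 ± 1.70 FPKM (adjusted p = 0.034), a call lost with median-of-ratios scaling and quantile normalization, and also under other settings and without single mice. Got1, an aspartate aminotransferase that also acts on cysteine sulfinate, fell from 298 ± 50 to 122 ± 11.8 FPKM (log2 -1.27 ± 0.21, adjusted p = 0.0022), and Cbs, the first enzyme from homocysteine towards cysteine, fell from 262 ± 21.6 to 191 ± 9.17 FPKM (adjusted p = 0.015). The Cbs call was lost with the most abundant transcript, with reference transcripts alone and without some single mice, and kept in 18 of 23 alternative runs. Papss2, the more abundant PAPS synthase, named after its values were seen, was at 53.6 ± 14.8 FPKM in ND and 60.1 ± 1.71 in HFD livers (adjusted p = 0.55). Between CLE and HFD livers Sqrdl fell to 53.5 ± 10.5 FPKM (log2 -0.66 ± 0.15, adjusted p = 0.034). This call was lost with no filter on low values, with the 2 groups fitted alone, with the most abundant transcript and with reference transcripts alone. It was also lost without some single mice, and kept in 15 of 23 alternative runs. None of the 17 passed between LU and HFD livers (7 at an unadjusted p of 0.05).

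Of 10 tested genes on a list of sulfatases and the sulfatase-modifying factors Sumf1 and Sumf2, 2 rose and 1 fell between HFD and ND livers (30.0%, against 12.1% of all genes). Sulf2, which trims heparan sulfate outside cells, rose from 5.85 ± 1.13 FPKM in ND to 17 ± 1.34 in HFD livers (log2 1.41 ± 0.16, adjusted p = 0.00016). Arsa, the lysosomal arylsulfatase A, rose from 17 ± 1.31 to 30.9 ± 1.58 FPKM (adjusted p = 0.0045), a call lost with reference transcripts alone, and Arsg, another lysosomal sulfatase, fell from 52.7 ± 4.65 to 25.6 ± 1.34 FPKM (adjusted p = 0.0057). Between CLE and HFD livers 3 of these 10 genes fell (30.0%, against 6.03% of all genes), among them the lysosomal enzymes Arsb and Ids with log2 differences of -1.01 and -0.51 (adjusted p = 0.037 and 0.033). These calls were lost with the 2 groups fitted alone and under other settings. They were kept in 13 of 23 and 12 of 22 alternative runs, which changed a setting or left out a mouse. Of 13 Golgi sulfotransferases, which act on proteins and glycans, 1 passed in each of these comparisons (7.69%). Tpst2 rose in HFD against ND livers (log2 0.54 ± 0.15, adjusted p = 0.034). This call was lost with median-of-ratios scaling and under other settings, and kept in 14 of 23 alternative runs. Hs2st1 fell in CLE against HFD livers (log2 -0.61 ± 0.15, adjusted p = 0.041). Its call was lost with the 2 groups fitted alone and under other settings, and kept in 8 of 22 alternative runs. None of the sulfatases or Golgi sulfotransferases passed between LU and HFD livers (3 and 2 at an unadjusted p of 0.05).

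Of 23 tested receptors and transcription factors that are linked to sulfotransferase genes, 5 rose and 1 fell between HFD and ND livers (26.1%, against 12.1% of all genes). Nfe2l2, the oxidative stress factor NRF2, rose from 33.4 ± 1.77 to 49.8 ± 3.55 FPKM (log2 0.56 ± 0.11, adjusted p = 0.0067). Ahr, the aryl hydrocarbon receptor, rose from 8.92 ± 2.27 to 16.5 ± 1.20 FPKM (adjusted p = 0.021), a call lost with median-of-ratios scaling and under other settings, and kept in 15 of 23 alternative runs. Nr1i3, the constitutive androstane receptor, named after its values were seen, rose from 102 ± 26.9 to 192 ± 16.7 FPKM (adjusted p = 0.033), also lost with that scaling and under other settings, and kept in 13 of 23 alternative runs. Foxa3, a hepatic forkhead factor, fell from 29.9 ± 1.37 to 20.0 ± 2.85 FPKM (adjusted p = 0.026). This call was lost with the most abundant transcript, with reference transcripts alone and without some single mice, and kept in 16 of 23 alternative runs. Between CLE and HFD livers 1 of the 23 fell and 1 rose (8.7%, against 6.03% of all genes). The gene that rose was Foxa3, to 32.1 ± 6.47 FPKM (adjusted p = 0.034). Its call was lost after the GC and length correction and under other settings, and kept in 15 of 23 alternative runs. Between LU and HFD livers none of the 23 passed (7 at an unadjusted p of 0.05).

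Because sulfotransferase levels are known to differ between the sexes, lists of genes that are typically higher in male or in female mouse liver were counted in these male livers. Of 16 male-biased genes, 13 fell and 0 rose between HFD and ND livers (81.2%, against 12.1% of all genes), with a median of -1.49 against 0.11 over all genes. Of these 13 calls, 8 were kept with the most abundant transcript, 9 with reference transcripts alone and 9 with no filter on low values. The genes called in the whole table were then 645, 661 and 1212 in place of 1400. The smallest p-values were those of Cyp4a12b (fatty acid hydroxylase, 73.7 ± 8.92 FPKM in ND and 16.6 ± 3.45 in HFD livers), Slco1a1 (organic anion transporter, 160 ± 11.1 and 15.9 ± 3.92), C8b (complement, 140 ± 16.9 and 36.1 ± 3.76), Elovl3 (fatty acid elongase, 394 ± 73.2 and 140 ± 20.5) and Hsd3b5 (steroid reductase, 60.7 ± 32.4 and 0.591 ± 0.418). Of 18 listed female-biased genes, 10 averaged 0.5 FPKM or more and were tested. Of these 10, 7 rose and 1 fell (80.0%, against 12.1% of all genes). The filter takes the mean over all 12 livers, so genes high in HFD livers alone can enter by it. Hao2 did so, with a mean of 0.596 FPKM, and the share partly reflects this filter. With no filter on low values, 8 of the 8 calls were kept. Cyp17a1, which makes steroid precursors, fell from 39.8 ± 4.64 to 4.82 ± 0.883 FPKM (adjusted p = 6e-06). Among those that rose, Cyp2a22 went from 2.12 ± 0.368 to 43.4 ± 4.4 FPKM, Cyp2a4 from 0.170 ± 0.201 to 4.61 ± 0.911 and Ntrk2 from 0.742 ± 0.130 to 4.59 ± 0.397 FPKM, and Hao2, listed at 0 in all ND livers, stood at 1.93 ± 0.450 FPKM in HFD livers. The Cyp2a and Cyp4a12 genes have near-identical copies, so their values are uncertain.

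In CLE against HFD livers, 6 male-biased genes rose and 0 fell, and 7 female-biased genes fell and 0 rose, with medians of 1.06 and -1.11 against 0.02 over all genes. These were 37.5% and 70.0% of the tested genes of the 2 lists, against 6.03% of all genes. The female-biased share, here and with LU, again includes Hao2, which entered the filter through its HFD level. With no filter on low values, which left 127 genes called in the whole table in place of 698, 1 of the 6 (Cyp4a12b) and 7 of the 7 still passed. Cyp4a12b rose to 70.9 ± 11.4 FPKM (log2 2.03 ± 0.19, adjusted p = 0.00071) and Slco1a1 to 65.0 ± 28.7 FPKM (adjusted p = 0.019), while Hao2 fell to 0.276 ± 0.128 FPKM (adjusted p = 0.00099) and Cyp2a4 to 0.661 ± 0.462 FPKM (adjusted p = 0.0023). In LU against HFD livers, 4 male-biased genes rose and 7 female-biased genes fell (25.0% and 70.0%, against 1.03% of all genes). The medians were 0.93 and -0.76 against -0.02, and with no filter 1 of the 4 (Cyp4a12b) and 4 of the 7 still passed. Cyp4a12b rose to 63.4 ± 17.6 FPKM (log2 1.85 ± 0.19, adjusted p = 0.0014) and Hao2 fell to 0.176 ± 0.115 FPKM (adjusted p = 0.001). Over all lists, 35 of 90 tested genes passed between HFD and ND livers (38.9%, against 12.1% of all genes), 20 between CLE and HFD (22.2%, against 6.03%) and 11 between LU and HFD livers (12.2%, against 1.03%). With each mouse left out in turn, these counts ran from 23 to 37, from 8 to 38 and from 4 to 17. Between CLE and LU livers 0 of the 90 passed in limma (7 at an unadjusted p of 0.05), against 0.00865% of all genes. Every listed gene that passed between LU and HFD livers was on a sex-biased list, and these lists were drawn up with earlier results known.

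**Figure D5:**
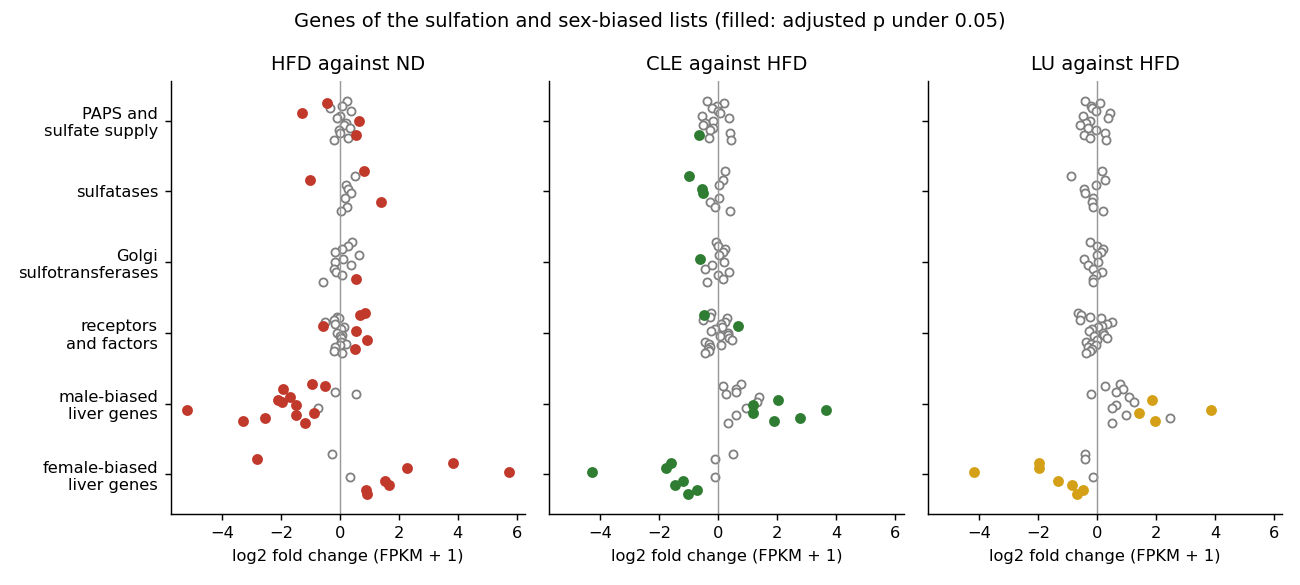
Log2 fold change (x axis, log2 of FPKM + 1) of each listed gene in 3 comparisons, by list on the y axis, with filled points for an adjusted p under 0.05. Of the male-biased genes 13 of 16 lie to the left as filled points in HFD against ND livers, and 6 and 4 lie to the right as filled points in CLE and LU against HFD livers.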

How the data were processed

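Livers of 12 mice were sequenced by the submitters as paired reads of 100 bases, 3 for each group in the sample titles. Per the submitters' processing notes, CASAVA 1.8.2, Bowtie2 2.2.3, TopHat2 2.0.12 and Cufflinks 2.2.1 were used, and the authors deposited FPKM for 152210 transcript rows. By their own label these rows were assembled from 30 samples, while 12 samples have values, so an assembled transcript can stem from samples not described here. The genome build, and whether normalization factors entered the deposited FPKM, are not given in the sources used here. Of known transcripts, 85.5% have their GENCODE M21 (GRCm38) start and end. Cufflinks shares fragments among overlapping transcripts, so counts and depth cannot be recovered. FPKM were summed per gene name, leaving out 6316 rows without a name, which hold 13.9% to 23.7% of the FPKM of a library.

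Genes averaging 0.5 FPKM or more (11566) were fitted with limma 3.58.1 under R 4.3.3 (variance trend) on log2(FPKM + 1), with all 12 mice in the same fit, two-sided, and Benjamini-Hochberg adjustment over all genes at 0.05. The fit was tested on simulated data. The sulfotransferase genes and the gene lists were chosen with earlier results of these data known. Named from each list were at most the 5 genes with the smallest p per comparison, and for each sulfotransferase the 3 genes with the highest correlation. Papss2 and Nr1i3 were named outside this rule, and some listed genes that are counted are not reported here by name.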

Additional observations from a re-analysis of the deposited data

How the results depend on the processing

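The 6 sulfotransferase genes kept the direction of their difference between HFD and ND livers under every alternative run (23 for each gene, and 22 for Sult1c2 and Sult1e1, which a minimum of 5 FPKM leaves out). The ranges were 3.03 to 5.17 for Sult1e1, 0.92 to 1.17 for Sult1d1, 0.67 to 1.16 for Sult1c2, 0.24 to 0.68 for Sult1b1, -0.28 to -0.08 for Sult1a1 and -1.42 to -0.65 for Sult2a8. Against HFD livers, Sult1e1 ranged from -4.75 to -2.93 with CLE and from -3.34 to -2.25 with LU, while Sult1b1 (LU) and Sult2a8 (CLE and LU) took both signs. Between CLE and HFD livers the 3 sulfotransferase genes past the threshold became 1 with no filter, with the 2 groups alone, when the most abundant transcript stood for the gene and after the GC and length correction, where the 698 genes called in the whole table became 127, 91, 263 and 497.

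The 35 listed genes that passed between HFD and ND livers became 22 when the most abundant transcript stood for the gene and 22 with reference transcripts alone. The 20 between CLE and HFD livers became 8 with no filter, 12 with the 2 groups alone and 12 when the most abundant transcript stood for the gene. Both counts of 12 include listed genes that had not passed before. With the 2 groups alone, 6 of 7 female-biased and 5 of 6 male-biased calls were kept. With the most abundant transcript, 6 of 6 and 3 of 6 were kept, and under both settings none on the other lists. The 11 between LU and HFD livers became 5 with no filter and 7 after the GC and length correction, which was chosen after seeing the data, as was leaving out opposite-strand and intronic rows. A mean of at least 5 FPKM also gave 7, because it left the others untested. All 3 female-biased and 4 male-biased genes that it left in kept their calls. Leaving out each mouse, the counts ran from 23 to 37 between HFD and ND livers, from 8 to 38 between CLE and HFD, from 4 to 17 between LU and HFD and stayed at 0 between CLE and LU. The counts moved by more than 1.5 times without ND mouse 2 (23 between HFD and ND livers), without each HFD mouse (8, 8 and 10 between CLE and HFD, and 7, 5 and 6 between LU and HFD), without CLE mouse 2, 4 or 11 (38, 9 and 12 between CLE and HFD), without ND mouse 3 or 4 (7 between LU and HFD), and without LU mouse 2, 3 or 8 (5, 4 and 17) or CLE mouse 4 (17) between LU and HFD. The cause of these moves was not tested. Of 1495 repeats of a listed gene's call, 1212 kept it, 283 lost it and 0 changed sign.

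Mouse numbers recur between ND, CLE and LU livers. Livers with the same number had deviations correlated by -0.26 to 0.18. These few pairs, not set against livers of different numbers, cannot tell whether the numbers pair the mice. With the replicate block, 0 listed genes passed between CLE and LU livers, as without it, and HFD mice share no number with the others.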
